A study of Mus musculus with 9 samples.

Results

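The genes described here encode parts of the dystrophin complex and were 8 of the 49671 genes in the deposited count tables: Dmd, Utrn, Dag1, Sgcb, Sgcd, Sntb1, Sntb2 and Dtna. They were found by gene symbol, and 6 of them passed a filter on low counts and were tested among 15766 genes, while Sgcd and Sntb1 did not. The series asked how gene expression changes when VPAC2 is depleted from Panc02 cells, a line of mouse pancreatic ductal adenocarcinoma. VPAC2 is the product of Vipr2 and a receptor of the neuropeptide VIP. Poly(A) RNA was sequenced from 9 libraries of untreated cells grown in DMEM with 10% serum, 3 libraries in each of 3 groups. KO_1E7 is a clone with the genotype label VPAC2 knock out. CRISPR_1G2 is a clone with the genotype label CRISPR-wild type, although the design text of the series counts both clones as derived from the CRISPR knockout cells. Parental is the line itself, with the genotype label wild type. Each edited group is 1 clone, so a difference from parental cells cannot be told apart from a difference of that clone, and nothing in the labels says that the libraries of a group came from separate cultures. Vipr2 itself was rare, with 1, 2 and 1 reads in KO_1E7, 1, 13 and 12 in CRISPR_1G2 and 6, 3 and 12 in parental.

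The dystrophin complex spans the plasma membrane. Dystrophin, the product of Dmd, and its close relative utrophin, the product of Utrn, bind actin filaments inside the cell and hold the transmembrane protein dystroglycan, whose outer subunit binds laminins, agrin and perlecan through a sugar chain built by a dedicated set of enzymes. Sarcoglycans stabilise dystroglycan in the membrane, and syntrophins and dystrobrevins attach signalling proteins on the inner side. The complex is best known from skeletal muscle, where its loss causes muscular dystrophies, but epithelial cells carry it too, mostly with utrophin and shorter forms of dystrophin.

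Dmd was the member that differed between the groups. It was high in the KO_1E7 libraries, intermediate in the parental libraries and close to absent in the CRISPR_1G2 libraries, while the transcripts of utrophin, dystroglycan, beta-sarcoglycan, beta-2-syntrophin and alpha-dystrobrevin did not pass the test in any comparison. The 8 genes had been selected on counts and fold changes of these same libraries, with the 3 comparisons in view, so their differences are given as a description.

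Dmd (ENSMUSG00000045103) lies on the plus strand of chromosome X, from 82948870 to 85206141 on GRCm38. GENCODE M21 annotates 14 transcripts, of which 3 are protein coding and share 2 starts. The full-length form starts at 82948903 and has 79 exons and a spliced length of 14910 bases. The short forms start at 85048413, 2099510 bases further on, inside the gene, and have 18 exons and 4438 bases or 17 exons and 1858 bases. The short forms lack the actin-binding end and belong to the kind of dystrophin found outside muscle. Counts were deposited per gene, so the values below do not tell these forms apart. The 250 bases before each RefSeq start on GRCm38.p6 are printed. The counted RNA may come from either or from elsewhere, as other annotated transcripts start between them. Capitals mark the CArG box and the GC boxes, described below and found by a search of both strands, while E boxes are left in lower case.

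Dmd upstream start, chrX:82948620-82948869, plus strand: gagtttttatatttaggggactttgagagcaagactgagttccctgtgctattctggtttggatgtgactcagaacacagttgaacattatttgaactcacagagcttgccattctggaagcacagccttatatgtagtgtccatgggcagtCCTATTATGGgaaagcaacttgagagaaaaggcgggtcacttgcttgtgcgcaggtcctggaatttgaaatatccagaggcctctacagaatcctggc
Dmd downstream start, chrX:85048045-85048294, plus strand: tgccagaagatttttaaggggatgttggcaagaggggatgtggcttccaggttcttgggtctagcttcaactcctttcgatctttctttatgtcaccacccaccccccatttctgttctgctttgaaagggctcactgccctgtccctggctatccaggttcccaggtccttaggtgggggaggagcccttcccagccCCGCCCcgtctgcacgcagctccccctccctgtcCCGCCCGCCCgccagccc

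The upstream window holds 1 CArG box, the motif bound by serum response factor, shown in capitals. Of 32851 RefSeq promoter windows of the same length, 1.47% hold one. The downstream window holds 3 GC boxes, searched as GGGCGG on either strand and shown in capitals, of which 2 overlap, while 32.7% of windows hold at least 1. The upstream window is 45.2% G and C with 2 CpG dinucleotides, and the downstream window is 60.0% G and C with 7, beside medians of 52.4% and 6 over all windows. E boxes, searched as CANNTG, number 2 in the upstream window and 0 in the downstream window, and 66.2% of windows hold one. TGACG, the core of the cAMP response element, is in neither window and in 17.8% of all. A match is a description of the letters and not evidence of binding.

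Expression levels are given as CPM, the deposited counts scaled to a common library size after TMM normalization. Dmd stood at 30.4, 27.6 and 37.2 CPM in KO_1E7 1, 2 and 3. It stood at 0.399, 0.284 and 0.336 CPM in CRISPR_1G2 1, 2 and 3. It stood at 7.98, 6.29 and 11.8 CPM in parental 1, 2 and 3. No library of any group overlapped with a library of another group. In bulk RNA, fewer cells that express a gene and less of its RNA per cell cannot be told apart.

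**Figure D1:**
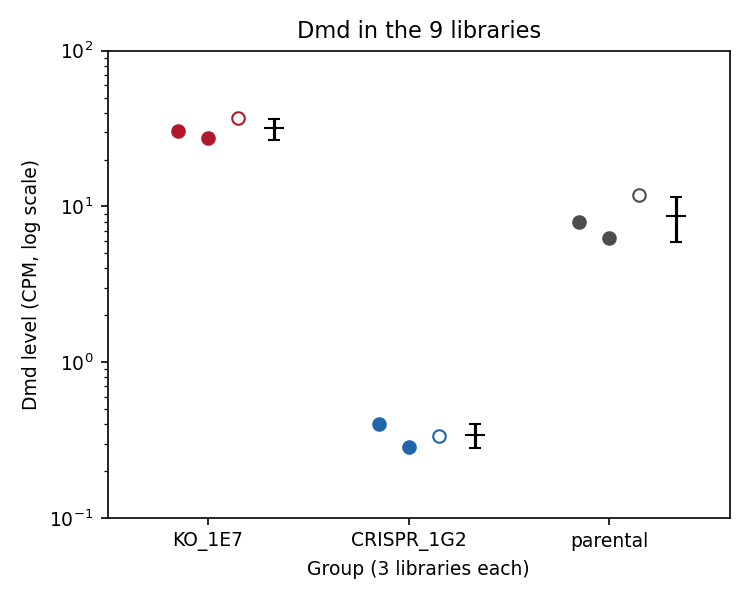
Level of Dmd in each library (CPM, logarithmic axis), with open points for the third library of a group and bars for mean and SD (n = 3). KO_1E7 libraries lie between 27.6 and 37.2 CPM, CRISPR_1G2 libraries between 0.284 and 0.399 CPM and parental libraries between 6.29 and 11.8 CPM.

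The low level of CRISPR_1G2 rested on 11, 9 and 11 reads in its 3 libraries, against 292, 228 and 424 reads in the parental libraries. Pooled over CRISPR_1G2, 31 reads gave 0.337 CPM with an exact 95% interval of 0.229 to 0.478, which covers counting error only. The limit that 3 reads over the whole group would set was 0.0326 CPM, so Dmd was detected there, at a low level. Per library size, pooled Dmd counts were 25.8 times higher in parental than in CRISPR_1G2 (interval 18.0 to 38.1).

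The log2 fold change of Dmd was 1.87 ± 0.25 (SE) in KO_1E7 against parental, a fold of 3.65 (adjusted p = 0.0119, edgeR quasi-likelihood test, n = 3 per group). It was -4.67 ± 0.31 in CRISPR_1G2 against parental (adjusted p = 0.00039). Between the clones it was 6.54 ± 0.33 in KO_1E7 against CRISPR_1G2, a fold of 92.8 (adjusted p = 4.09e-05). Dmd thus rose in one clone and fell in the other relative to parental cells. The direct comparison of the clones, from the same fit, also passed. Ordered by the size of the fold change over the 15766 tested genes, Dmd ranked 719 in KO_1E7 against parental, 27 in CRISPR_1G2 against parental and 38 in KO_1E7 against CRISPR_1G2. The rise in KO_1E7 against parental did not pass without KO_1E7 1 (1.91, adjusted p = 0.0564) or without KO_1E7 3 (1.76, adjusted p = 0.076). Over 18 alternatives its adjusted p ranged from 4.8e-09, given by DESeq2, to 0.076, given by edgeR. Between libraries whose column names carry the same date or word, Dmd was 3.81 times higher in KO_1E7 1 than in parental 1 and 3.15 times higher in KO_1E7 3 than in parental 3. CRISPR_1G2 1 held 0.0635 times the level of parental 2, and CRISPR_1G2 3 held 0.0285 times the level of parental 3. These are single pairs with no test.

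Dmd was the 1 member called of the 6 tested in each comparison. Over all tested genes, 5.42% were called in KO_1E7 against parental (2.54% higher and 2.87% lower) and 0.254% in CRISPR_1G2 against parental, all of them lower. In KO_1E7 against CRISPR_1G2 12.7% were called (5.71% higher and 7.03% lower). Dmd was also the 1 member whose libraries did not overlap in CRISPR_1G2 against parental, where 13.1% of tested genes did not overlap, and in KO_1E7 against CRISPR_1G2, where 38.6% did not. The median log2 fold change of the 6 members was 0.16, 0.14 and -0.01 in these comparisons, beside medians of -0.03, 0.02 and -0.03 over all genes. Both comparisons with parental share its 3 libraries.

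**Figure D2:**
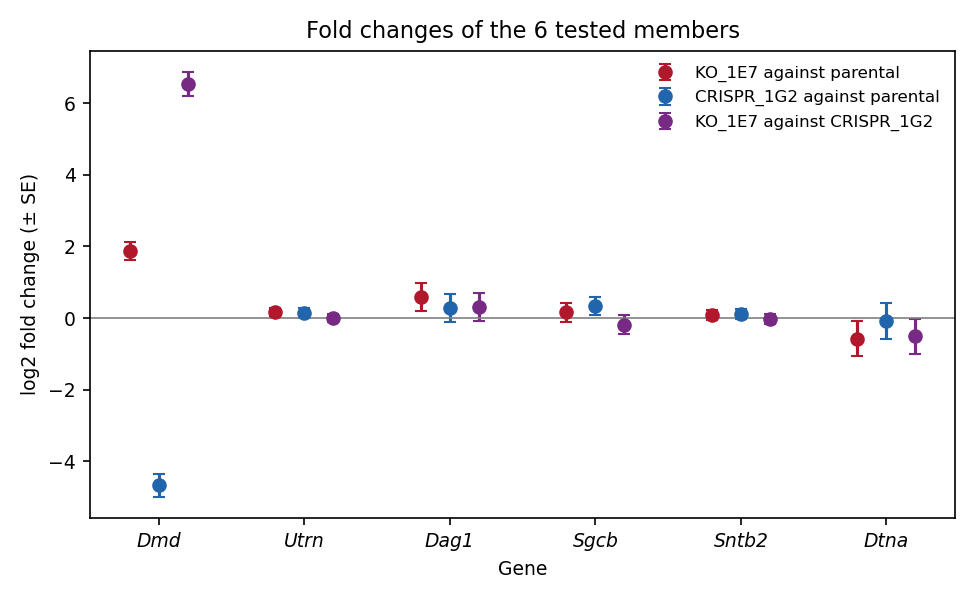
Log2 fold change (± SE) of the 6 tested members in the 3 comparisons. The estimates of Dmd lie at 1.87, -4.67 and 6.54, and those of the other 5 members lie between -0.58 and 0.59.

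The tested genes nearest to Dmd on chromosome X had smaller differences. Tab3, an adaptor of TAK1 signalling and the first tested gene after Dmd (85574022 to 85634469), stood at 27.6 ± 3.54 CPM in KO_1E7, 34.2 ± 4.54 CPM in CRISPR_1G2 and 27.4 ± 4.83 CPM in parental (SD, n = 3). Its log2 fold changes were 0.01 ± 0.18 in KO_1E7 against parental and 0.32 ± 0.18 in CRISPR_1G2 against parental (adjusted p = 0.979 and 0.757). Gk, which encodes glycerol kinase and follows Tab3, stood at 40.3 ± 5.13 CPM in KO_1E7, 57.6 ± 8.16 CPM in CRISPR_1G2 and 49.95 ± 2.81 CPM in parental, and did not pass in any comparison. Pola1, which encodes the catalytic subunit of DNA polymerase alpha and is the next tested gene, fell in KO_1E7 against CRISPR_1G2 (-0.48 ± 0.13, adjusted p = 0.0475). The gene model Gm8822, the first tested gene before Dmd, stood at 1.06, 1.20 and 1.19 CPM in KO_1E7, CRISPR_1G2 and parental. The median log2 fold change of the 429 tested genes on chromosome X was -0.16 in KO_1E7 against parental, 0.15 in CRISPR_1G2 against parental and -0.33 in KO_1E7 against CRISPR_1G2. Within the span of Dmd, 5 other annotated genes held 15 reads over all libraries, against 4753 for Dmd.

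A few genes of other chromosomes followed the level of Dmd across the libraries. By Pearson correlation of log2 CPM over the 9 libraries, the most similar tested genes were G730013B05Rik on chromosome 16 (r = 0.997), Arhgdib on chromosome 6 (r = 0.996) and 8430419K02Rik on chromosome 11 (r = 0.995). These values describe a ranking over 15766 genes in which the 3 groups make most of the spread, and they carry no test. Arhgdib, which encodes a GDP dissociation inhibitor, stood at 115.9 ± 33.3 CPM in KO_1E7, 3.46 ± 0.43 CPM in CRISPR_1G2 and 43.6 ± 13.8 CPM in parental. G730013B05Rik stood at 4.21 ± 0.378 CPM in KO_1E7, 0.0121 ± 0.021 CPM in CRISPR_1G2 and 1.53 ± 0.365 CPM in parental. 8430419K02Rik stood at 2.01 ± 0.304 CPM in KO_1E7, 0.133 ± 0.0445 CPM in CRISPR_1G2 and 0.92 ± 0.0772 CPM in parental. All of these genes had the group order of Dmd.

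Utrophin, which takes the place of dystrophin in many non-muscle cells, had the smallest ratio of highest to lowest library among the tested members, close to that of Sntb2. Utrn (ENSMUSG00000019820, minus strand of chromosome 10, 12382188 to 12861735) stood at 131.7, 149.8 and 142.4 CPM in KO_1E7, 125.6, 140.2 and 156.8 CPM in CRISPR_1G2 and 119.0, 133.8 and 126.8 CPM in parental. All groups overlapped, and the highest of the 9 libraries was 1.32 times the lowest. The log2 fold change was 0.16 ± 0.12 in KO_1E7 against parental (adjusted p = 0.473), 0.15 ± 0.12 in CRISPR_1G2 against parental (adjusted p = 0.87) and 0.00 ± 0.12 in KO_1E7 against CRISPR_1G2 (adjusted p = 0.986).

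Set against each other per kilobase of the deposited exon length, Utrn exceeded Dmd in every library. The level per kilobase of exon (RPKM, the CPM divided by the exon length in kilobases) was 8.33, 10.4 and 7.37 times higher for Utrn than for Dmd in KO_1E7. It was 604.0, 950.0 and 898.0 times higher in CRISPR_1G2 and 28.7, 40.9 and 20.7 times higher in parental. These ratios followed Dmd, since Utrn varied little in TMM-scaled CPM. They use the full deposited exon lengths of 12382 bases for Utrn and 23801 bases for Dmd, and a shorter Dmd transcript would lower them. Had all Dmd reads come from the coding transcript of 1858 bases, Dmd would stand at 16.4, 14.9 and 20.0 RPKM in KO_1E7, above Utrn at 10.6, 12.1 and 11.5 RPKM, so the order in KO_1E7 depends on the length.

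Dag1 encodes dystroglycan, the laminin-binding core of the complex. Dag1 (ENSMUSG00000039952, minus strand of chromosome 9, 108204634 to 108263958) stood at 199.6, 206.3 and 193.1 CPM in KO_1E7, 206.4, 196.3 and 82.95 CPM in CRISPR_1G2 and 134.6, 191.0 and 72.7 CPM in parental. The KO_1E7 libraries were all above the parental ones, but the lowest KO_1E7 library, at 193.1 CPM, lay next to parental 2, at 191.0 CPM. With Dmd this made 2 of 6 members whose libraries did not overlap in that comparison, where 34.4% of all tested genes did not overlap. The log2 fold change was 0.59 ± 0.39 in KO_1E7 against parental (adjusted p = 0.403), 0.29 ± 0.39 in CRISPR_1G2 against parental (adjusted p = 0.947) and 0.30 ± 0.39 in KO_1E7 against CRISPR_1G2 (adjusted p = 0.656). Parental 3 and CRISPR_1G2 3 were low, and without both of them the log2 fold change was -0.0016 in KO_1E7 against CRISPR_1G2. In that fit it was 0.30 ± 0.14 in KO_1E7 against parental (edgeR, adjusted p = 0.156). It was 0.30 ± 0.15 in CRISPR_1G2 against parental (adjusted p = 0.48).

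The sarcoglycans form a small membrane subcomplex around dystroglycan. Sgcb, which encodes beta-sarcoglycan (ENSMUSG00000029156, minus strand of chromosome 5, 73632749 to 73647790), stood at 26.7, 23.8 and 24.3 CPM in KO_1E7, 21.4, 22.2 and 41.2 CPM in CRISPR_1G2 and 20.55, 19.6 and 26.8 CPM in parental. CRISPR_1G2 3 was the high library, and the groups overlapped. The log2 fold change was 0.16 ± 0.26 in KO_1E7 against parental (adjusted p = 0.752), 0.34 ± 0.26 in CRISPR_1G2 against parental (adjusted p = 0.858) and -0.18 ± 0.26 in KO_1E7 against CRISPR_1G2 (adjusted p = 0.691).

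Sgcd, which encodes delta-sarcoglycan (ENSMUSG00000020354, minus strand of chromosome 11, 46896253 to 47988969), was close to undetected. It had 0, 2 and 0 reads in KO_1E7, 0, 1 and 1 in CRISPR_1G2 and 0, 0 and 1 in parental. Every group was under the limit of 3 reads, so no difference could be detected at this depth. A level of 3 reads over a group corresponds to 0.0247 CPM in KO_1E7, 0.0326 CPM in CRISPR_1G2 and 0.0276 CPM in parental.

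Syntrophins are adaptors that bind dystrophin, utrophin and dystrobrevin and hold signalling proteins near the membrane. Sntb2, which encodes beta-2-syntrophin (ENSMUSG00000041308, plus strand of chromosome 8, 106935750 to 107019714), stood at 101.5, 137.2 and 108.9 CPM in KO_1E7, 111.1, 115.3 and 127.0 CPM in CRISPR_1G2 and 111.3, 101.7 and 112.8 CPM in parental. The groups overlapped, and the highest of the 9 libraries was 1.35 times the lowest. The log2 fold change was 0.09 ± 0.14 in KO_1E7 against parental (adjusted p = 0.732), 0.12 ± 0.14 in CRISPR_1G2 against parental (adjusted p = 0.925) and -0.02 ± 0.14 in KO_1E7 against CRISPR_1G2 (adjusted p = 0.931). On chromosome 8 the median over 892 tested genes was 0.31 in KO_1E7 against parental and 0.34 in KO_1E7 against CRISPR_1G2, so Sntb2 lay below its chromosome there.

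Sntb1, which encodes beta-1-syntrophin (ENSMUSG00000060429, minus strand of chromosome 15, 55638843 to 55906949), had 0, 3 and 4 reads in KO_1E7, 1, 2 and 1 in CRISPR_1G2 and 1, 0 and 0 in parental. It was too low to test. Of the beta syntrophins, it was Sntb2 whose transcripts these cells held in quantity.

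Dtna encodes alpha-dystrobrevin, a cytoplasmic relative of dystrophin. Dtna (ENSMUSG00000024302, plus strand of chromosome 18, 23415415 to 23659714) stood at 23.9, 30.2 and 29.1 CPM in KO_1E7, 27.6, 25.0 and 65.5 CPM in CRISPR_1G2 and 38.6, 18.2 and 67.9 CPM in parental. CRISPR_1G2 3 and parental 3 were the high libraries, parental 2 was the lowest of the 9, and the groups overlapped. The log2 fold change was -0.58 ± 0.49 in KO_1E7 against parental (adjusted p = 0.512), -0.08 ± 0.49 in CRISPR_1G2 against parental (adjusted p = 0.992) and -0.51 ± 0.49 in KO_1E7 against CRISPR_1G2 (adjusted p = 0.538).

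**Figure D3:**
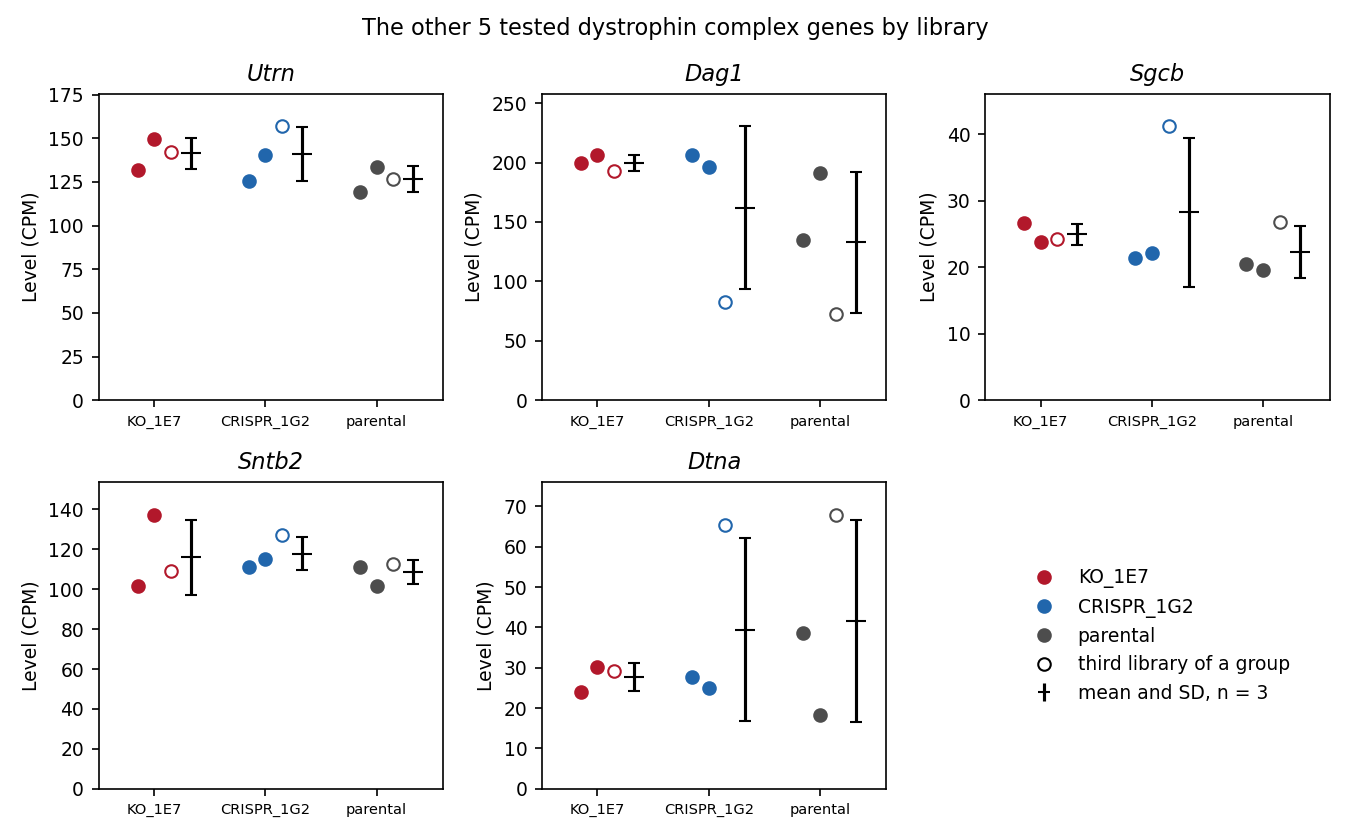
Levels of Utrn, Dag1, Sgcb, Sntb2 and Dtna in each library (CPM, axes from 0), with open points for the third library of a group and bars for mean and SD (n = 3). The third libraries of CRISPR_1G2 and parental are low for Dag1 (82.95 and 72.7 CPM) and high for Dtna (65.5 and 67.9 CPM).

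The spread of Dag1 and Dtna thus lay within groups. In KO_1E7 the third library held 0.951, 1.08 and 0.964 times the mean of the others for Dag1, Dtna and Sgcb. In CRISPR_1G2 and in parental, the third library held 0.412 and 0.447 times the mean of the other 2 libraries for Dag1. For Dtna it held 2.49 and 2.39 times that mean, and for Sgcb 1.89 and 1.34 times. Utrn and Sntb2 lay between 0.913 and 1.18 in all 3 groups. Dmd lay at 1.28 in KO_1E7, 0.983 in CRISPR_1G2 and 1.65 in parental. The nearest libraries of KO_1E7 and parental, KO_1E7 2 and parental 3, stood at 27.6 and 11.8 CPM, and without parental 3 the log2 fold change of Dmd was 2.16 in KO_1E7 against parental.

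**Figure D4:**
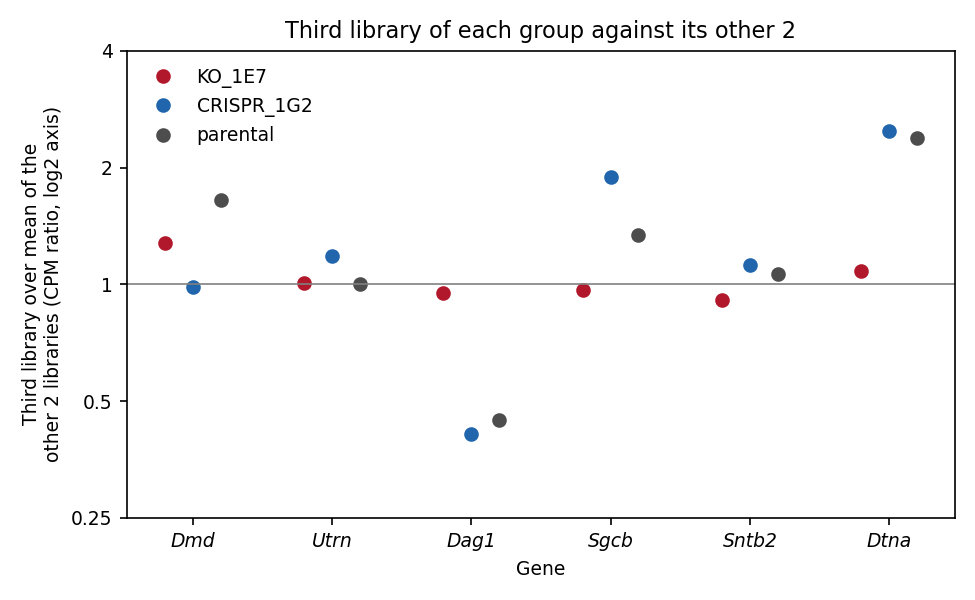
Ratio of the level in the third library of each group to the mean of its other 2 libraries (CPM ratio, log2 axis) for the 6 tested members. The ratio is 0.951 for Dag1 and 1.08 for Dtna in KO_1E7, 0.412 and 2.49 in CRISPR_1G2 and 0.447 and 2.39 in parental.

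CRISPR_1G2 3 and parental 3 stood apart over the transcriptome. A ratio above 2 was found for 2.67% of tested genes in KO_1E7, 13.0% in CRISPR_1G2 and 11.8% in parental. A ratio below 0.5 was found for 4.27%, 13.3% and 7.82% in those groups. The third library of each group carries the word NSG in its file name, whose meaning the labels do not give, and the others carry dates. The 9 libraries held between 27898705 and 51878289 reads counted on genes.

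Markers of cell types in which the complex is best known were set beside the members. The 12 skeletal muscle markers summed to 4.23 to 11.5 CPM over the KO_1E7 libraries, 8.97 to 14.05 CPM over CRISPR_1G2 and 5.68 to 15.2 CPM over parental, and 8 of them were under 1 CPM in every library. The 8 Schwann cell markers summed to 29.95 to 36.5 CPM in KO_1E7, 38.9 to 90.35 CPM in CRISPR_1G2 and 33.7 to 55.9 CPM in parental, with Pmp2 at 0 reads in all libraries and Sox10 at 5 reads in total. Most of the muscle sum came from Acta1, Ttn and Neb. Acta1 averaged 3.20 CPM in KO_1E7, 4.94 CPM in CRISPR_1G2 and 2.39 CPM in parental, while the myogenic regulators Myod1 and Myog had 4 and 3 reads in total. Most of the Schwann sum came from Mbp (20.2 CPM in KO_1E7, 27.9 CPM in CRISPR_1G2 and 21.6 CPM in parental) and Prx (8.36 CPM in KO_1E7, 20.4 CPM in CRISPR_1G2 and 15.6 CPM in parental). The 10 pancreatic duct and epithelial markers summed to 1287 to 2108 CPM in KO_1E7, 895.8 to 2113 CPM in CRISPR_1G2 and 1360 to 2052 CPM in parental, although Cftr had 6 reads in total. The lowest epithelial sum of CRISPR_1G2 and of parental was that of CRISPR_1G2 3 and parental 3, as for Dag1, and the part of this in the level of Dag1 was not tested. Among the epithelial markers, the keratin gene Krt7 fell in KO_1E7 against CRISPR_1G2 (-3.23 ± 0.53, adjusted p = 0.00759), also in all 18 alternatives. The list did not fall as a whole there, with 4 positive and 5 negative estimates among the 9 tested genes and a median of -0.24. The estimate of Cdh1 was 1.4 ± 0.5 (edgeR, adjusted p = 0.102), and DESeq2 called it. The fibroblast markers summed to 23.15 to 39.2 CPM in KO_1E7, 25.9 to 51.5 CPM in CRISPR_1G2 and 20.65 to 28.1 CPM in parental. Less stable calls were those of Krt7 in KO_1E7 against parental (-2.50 ± 0.51, adjusted p = 0.0323) and, in KO_1E7 against CRISPR_1G2, of Epcam (-2.83 ± 0.67, adjusted p = 0.0292) and the collagen genes Col1a2 (3.67 ± 1.02, adjusted p = 0.0482) and Col1a1 (-1.59 ± 0.43, adjusted p = 0.0449). Each of these ended without any 1 of 5 to 9 libraries, with adjusted p between 0.0506 and 0.168. The immune markers summed to 20.2 to 21.8 CPM in KO_1E7 and 18.8 to 28.1 CPM in CRISPR_1G2. The parental libraries were split, with sums of 21.7, 3.34 and 10.95 CPM in parental 1, 2 and 3. Lyz2 stood at 12.4, 0.52 and 2.39 CPM in these libraries. The endothelial markers summed to at most 1.33 CPM in KO_1E7, 1.83 CPM in CRISPR_1G2 and 1.81 CPM in parental.

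Per length, Dag1 was the most abundant member in every group. It averaged 31.4 ± 1.04 RPKM in KO_1E7, 25.5 ± 10.8 RPKM in CRISPR_1G2 and 20.9 ± 9.3 RPKM in parental (SD, n = 3). Utrn followed with 11.4 ± 0.736 RPKM in KO_1E7, 11.4 ± 1.26 RPKM in CRISPR_1G2 and 10.2 ± 0.6 RPKM in parental. Sntb2 stood beside it with 11.2 ± 1.82 RPKM in KO_1E7, 11.4 ± 0.798 RPKM in CRISPR_1G2 and 10.5 ± 0.582 RPKM in parental. Utrn and Sntb2 did not differ beyond their spread in any group. Sgcb averaged 6.16 ± 0.377 RPKM in KO_1E7, 6.97 ± 2.77 RPKM in CRISPR_1G2 and 5.51 ± 0.968 RPKM in parental. Dtna averaged 4.21 ± 0.512 RPKM in KO_1E7, 5.98 ± 3.44 RPKM in CRISPR_1G2 and 6.31 ± 3.79 RPKM in parental. Sgcb and Dtna lay within each other's spread in CRISPR_1G2 and parental.

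Dmd came next in KO_1E7 with 1.33 ± 0.206 RPKM and in parental with 0.365 ± 0.118 RPKM. In CRISPR_1G2 it fell to 0.0143 ± 0.00244 RPKM, next to Sntb1 at 0.0151 ± 0.00604 RPKM there, which it did not differ from beyond the spread. Sntb1 stood at 0.0205 ± 0.0208 RPKM in KO_1E7 and 0.00317 ± 0.0055 RPKM in parental, and Sgcd was the lowest member in every group, at no more than 0.00251 RPKM on average. The place of Dmd rests on its length: had all its reads come from the short transcript of 4438 bases, its level would be 6.85, 6.22 and 8.37 RPKM in the KO_1E7 libraries, near that of Sgcb, and with the length of 1858 bases it would stand above Utrn and Sntb2 in mean. On the length of 4438 bases it would be 0.09, 0.0639 and 0.0757 RPKM in CRISPR_1G2 and 1.80, 1.42 and 2.66 RPKM in parental.

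Around the members, 5 lists of 56 genes covered the rest of the complex, the enzymes that glycosylate dystroglycan, its ligands, its cytoskeletal partners and the other laminin receptors. They were chosen with earlier results of these data known. Over all tested genes, edgeR called 5.42% in KO_1E7 against parental, 0.254% in CRISPR_1G2 against parental and 12.7% in KO_1E7 against CRISPR_1G2. Of the 12 other complex genes 4 were tested, among them Drp2, Sspn and Dtnb, and Cav3, Sgcz and Sntg2 had 0 reads in all libraries. In KO_1E7 against parental edgeR called 0 of the 4, with 2 at an unadjusted p below 0.05, and DESeq2 called 2, Sspn among them. In CRISPR_1G2 against parental edgeR called 0, with 0 at such a p, and DESeq2 called 0. The median log2 fold changes of the 4 were -0.34 in KO_1E7 against parental, 0.14 in CRISPR_1G2 against parental and -0.30 in KO_1E7 against CRISPR_1G2. Sspn, which encodes sarcospan, averaged 47.0 ± 8.41 CPM in KO_1E7, 28.4 ± 9.78 CPM in CRISPR_1G2 and 23.3 ± 8.17 CPM in parental (1.01 ± 0.34 in KO_1E7 against parental, adjusted p = 0.113).

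Of 18 dystroglycan glycosylation genes 17 were tested, and the calls lay in the comparisons with KO_1E7. Most calls over all tested genes lay there too, with 5.42% against parental and 12.7% against CRISPR_1G2, beside 0.254% in CRISPR_1G2 against parental. In KO_1E7 against parental 1 rose and 3 fell, with a median of -0.18, and in KO_1E7 against CRISPR_1G2 1 rose and 3 fell, with a median of -0.12. In CRISPR_1G2 against parental edgeR called 0 of 17, with 0 at an unadjusted p below 0.05 and 0 called by DESeq2, and the median was -0.07. Pomk, the kinase that phosphorylates the core mannose of dystroglycan, averaged 44.9 ± 6.08 CPM in KO_1E7, 23.1 ± 1.85 CPM in CRISPR_1G2 and 26.2 ± 1.10 CPM in parental. It rose by 0.78 ± 0.14 against parental (adjusted p = 0.0218) and by 0.96 ± 0.14 against CRISPR_1G2 (adjusted p = 0.0056). Pomk lies on chromosome 8, whose tested genes had medians of 0.31 and 0.34 in these comparisons. B3galnt2, which adds an N-acetylgalactosamine to the same mannose chain, averaged 43.5 ± 5.55 CPM in KO_1E7, 70.9 ± 4.44 CPM in CRISPR_1G2 and 66.5 ± 6.1 CPM in parental. Its log2 fold change in KO_1E7 was -0.61 ± 0.13 against parental (adjusted p = 0.0379) and -0.70 ± 0.13 against CRISPR_1G2 (adjusted p = 0.0138). Dpm2, a subunit of the synthase of the mannose donor, averaged 23.5 ± 0.854 CPM in KO_1E7, 36.7 ± 1.87 CPM in CRISPR_1G2 and 35.05 ± 2.71 CPM in parental (-0.58 ± 0.12 against parental, adjusted p = 0.0327, and -0.64 ± 0.12 against CRISPR_1G2, adjusted p = 0.0126). Dolk, the kinase of the lipid carrier dolichol, averaged 14.2 ± 1.88 CPM in KO_1E7, 19.0 ± 0.269 CPM in CRISPR_1G2 and 21.9 ± 0.802 CPM in parental, and fell against parental (-0.63 ± 0.14, adjusted p = 0.0398). Dpm2 and Dolk lie on chromosome 2, with medians of -0.19 in KO_1E7 against parental and -0.27 in KO_1E7 against CRISPR_1G2. The part of these chromosome-wide shifts in the calls was not tested.

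Several of these calls ended when 1 library was left out. Against parental, Pomk did not pass without any 1 of parental 1, 2 and 3 and KO_1E7 1 and 3 (0.69 to 0.82, adjusted p 0.0551 to 0.11). B3galnt2 did not pass without any 1 of parental 1, 2 and 3, KO_1E7 1 and 3 and CRISPR_1G2 1 and 2 (-0.67 to -0.53, adjusted p 0.0621 to 0.191). Dpm2 (-0.63 to -0.52, 0.0623 to 0.166) and Dolk (-0.71 to -0.51, 0.0792 to 0.192) did not pass without any 1 library other than CRISPR_1G2 3. Against CRISPR_1G2, B3galnt2 (-0.65 to -0.63, 0.0541 to 0.0832) and Dpm2 (-0.66 to -0.59, 0.0501 to 0.0755) did not pass without KO_1E7 1, KO_1E7 3 or CRISPR_1G2 1. The direction was the same in each of these fits, and the call of Pomk against CRISPR_1G2 held in all 18 alternatives.

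The ligands of dystroglycan gave the call with the lowest adjusted p in the lists. Hspg2, the gene of perlecan, a proteoglycan of basement membranes, averaged 2.27 ± 0.676 CPM in KO_1E7, 3.66 ± 0.679 CPM in CRISPR_1G2 and 18.7 ± 1.41 CPM in parental. It fell in both clones, by 3.05 ± 0.26 in KO_1E7 against parental (adjusted p = 0.00276) and by 2.35 ± 0.25 in CRISPR_1G2 against parental (adjusted p = 0.00698). Without CRISPR_1G2 1 the call in CRISPR_1G2 against parental ended (-2.29, adjusted p = 0.0572). Agrn, which encodes agrin, averaged 202.7 ± 24.5 CPM in KO_1E7, 118.7 ± 9.13 CPM in CRISPR_1G2 and 172.3 ± 38.6 CPM in parental, and rose in KO_1E7 against CRISPR_1G2 (0.77 ± 0.18, adjusted p = 0.0262). Agrn did not pass without any 1 of KO_1E7 1, 2 and 3 and CRISPR_1G2 1 and 2 (0.70 to 0.88, adjusted p 0.0595 to 0.0985). Of the 10 ligand genes 4 were tested, with medians of -0.04 in KO_1E7 against parental, -0.48 in CRISPR_1G2 against parental and 0.01 in KO_1E7 against CRISPR_1G2. Lama5, a laminin chain, was the most abundant of the ligand genes by CPM, at 793.4 ± 195.0 CPM in KO_1E7, 1162 ± 205.0 CPM in CRISPR_1G2 and 933.9 ± 57.5 CPM in parental.

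**Figure D5:**
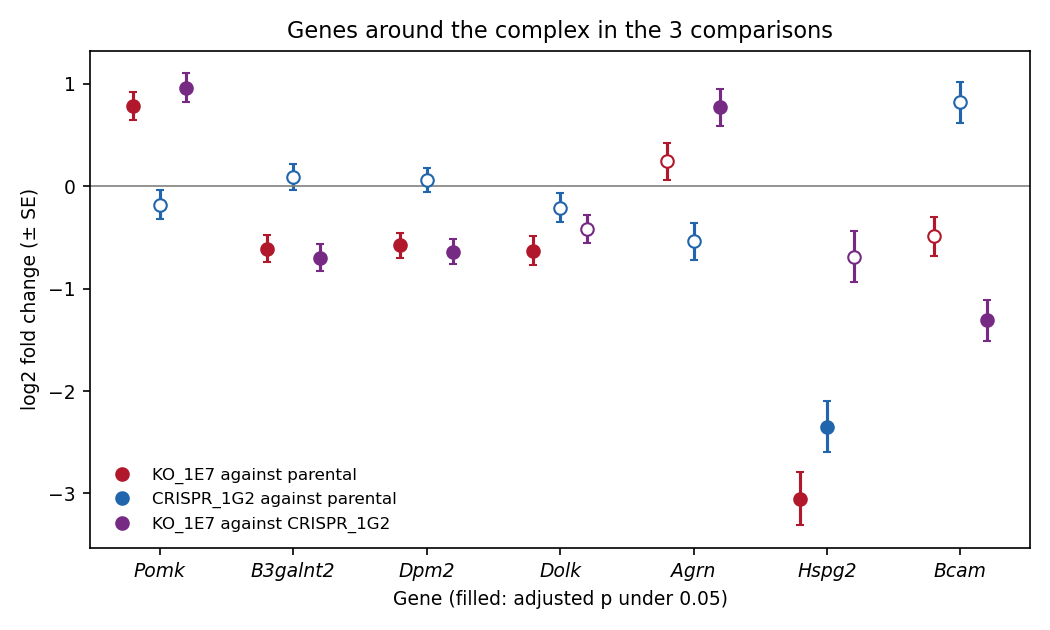
Log2 fold change (± SE) in the 3 comparisons for 7 genes of the lists around the complex that were called at least once, with filled points where the adjusted p was under 0.05. Hspg2 lies at -3.05 and -2.35 in the clones against parental, and Pomk lies at 0.78 and 0.96 in KO_1E7 against parental and against CRISPR_1G2.

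The other laminin receptors and the cytoskeletal partners had 1 call between them, in KO_1E7 against CRISPR_1G2, where 12.7% of all tested genes were called. Of the 6 laminin receptor genes, all tested, Bcam, which encodes a laminin alpha-5 receptor, averaged 14.9 ± 2.92 CPM in KO_1E7, 36.9 ± 6.00 CPM in CRISPR_1G2 and 20.9 ± 2.74 CPM in parental. It fell in KO_1E7 against CRISPR_1G2 (-1.31 ± 0.20, adjusted p = 0.00611), and this call held in all 18 alternatives. Bcam lies on chromosome 7, where the median over 1240 tested genes was -0.53 in that comparison. In the comparisons with parental edgeR called 0 of the 6, with 2 in KO_1E7 and 1 in CRISPR_1G2 at an unadjusted p below 0.05, and DESeq2 called Itgb1 in KO_1E7 and Bcam in CRISPR_1G2. The medians were -0.25 in KO_1E7 against parental, 0.33 in CRISPR_1G2 against parental and -0.53 in KO_1E7 against CRISPR_1G2. Of the 10 cytoskeletal and adaptor partners 9 were tested and edgeR called 0, with 1, 1 and 2 at an unadjusted p below 0.05 in KO_1E7 against parental, CRISPR_1G2 against parental and KO_1E7 against CRISPR_1G2. DESeq2 called Ank2 in the first of these, 0 in the second and Grb2 in the third, and the medians were -0.18, -0.17 and -0.36. The most abundant of them by CPM, the keratin gene Krt8, averaged 822.1 ± 183.0 CPM in KO_1E7, 659.5 ± 363.0 CPM in CRISPR_1G2 and 773.9 ± 304.0 CPM in parental, a spread within groups as large as the differences between them.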

How the data were processed

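Per the labels' protocols, poly(A) RNA of 9 Panc02 libraries was prepared with NEBNext Ultra II RNA reagents. That kit keeps no strand information. Per the submitters' processing notes, the tools named are bcl2fastq 2.17, STAR 2.5.2b, featureCounts (Subread 1.5.2) and DESeq2, and the build is GRCm38. The annotation release and strand setting are not given in the sources used here, so a gene and its antisense partner cannot be told apart. The authors deposited raw counts per gene for 49671 genes and 92 spike-in controls. Library sizes and tests exclude the spike-in controls, which held 0.344% to 0.82% of all counts.

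Groups and numbers were taken from the labels. A total of 15766 genes passed edgeR's filterByExpr by group and entered 1 robust quasi-likelihood fit of all 9 libraries (edgeR 4.0.16, R 4.3.3) with scaling by TMM, the trimmed mean of M-values. P-values were adjusted by Benjamini-Hochberg over all genes tested and called at 0.05. CPM used TMM-scaled library sizes, and RPKM divided CPM by the deposited exon length. Correlations used log2 CPM with a prior count of 2. The code was tested on simulated data. Intervals are exact at 95% and, in the absence of molecular identifiers, cover only counting error. No pair of libraries agreed within sampling noise, and p-values measure the spread between libraries, which may be technical. Alternatives included DESeq2 1.42.0, other filters and scalings, a replicate block and leaving out libraries.

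The members, lists and named-gene rule were chosen with earlier results of these data known. The text names all members, the list genes called (some are not reported here), the most abundant gene of a list with none called and the 3 tested genes most correlated with each called member; Sspn, Lama5, the genes beside Dmd, the marker genes and the genes that only DESeq2 called were named after their values were seen. Same-numbered libraries of CRISPR_1G2 and parental deviated together from their group means (correlations 0.243, 0.469 and 0.647). Parental 1 and CRISPR_1G2 2 (0.136) and parental 2 and CRISPR_1G2 1 (0.54) did so too. Deviations from a group mean cancel within the group, so these correlations are not independent of that of the third libraries (0.647). The numbers are therefore not shown to pair these groups, and the main fit held no pairing term. The dates in the column names do not follow the numbers: parental 2 shares its date with CRISPR_1G2 1 (correlation 0.54), and parental 1 with KO_1E7 1 (-0.00342). RefSeq promoter windows were found for 5 of the 8 members.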

Additional observations from a re-analysis of the deposited data

Results flagged for a closer look

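Dmd differed from parental cells in opposite directions in the 2 clones. It rose in KO_1E7 and fell in CRISPR_1G2, in 3 of 3 libraries of each. The direct comparison of KO_1E7 with CRISPR_1G2, from the same fit, gave a log2 fold change of 6.54 ± 0.33 (adjusted p = 4.09e-05, edgeR). Dmd had been selected on counts and fold changes of these same libraries, so these values are a description.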

How the results depend on the processing

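Dmd kept its direction in all 18 alternatives, at 1.69 to 2.16 in KO_1E7 against parental, -4.85 to -4.39 in CRISPR_1G2 against parental and 6.42 to 6.67 in KO_1E7 against CRISPR_1G2, and its calls held except in KO_1E7 against parental without KO_1E7 1 or 3. Leaving out 1 library in turn gave 0 to 1 members, 1 to 10 list genes and 24 to 1998 genes in all in KO_1E7 against parental, against 1, 5 and 854 with all libraries. It gave 0 to 1 list genes and 15 to 71 genes in CRISPR_1G2 against parental, against 1 and 40, and 2 to 7 list genes and 453 to 2332 genes in KO_1E7 against CRISPR_1G2, against 7 and 2010. In KO_1E7 against parental, list genes and all genes called numbered 2 and 546 with no filter on low counts, 10 and 2049 with DESeq2, 11 and 2060 with a term for NSG, 10 and 1737 with dated libraries only and 15 and 3330 with parental 3 and CRISPR_1G2 3 left out. In KO_1E7 against CRISPR_1G2 they numbered 14 and 3330 with the NSG term, 16 and 3111 with dated libraries only and 17 and 4615 with parental 3 and CRISPR_1G2 3 left out, and DESeq2 called 3069 genes. In CRISPR_1G2 against parental DESeq2 called 2 list genes and 183 genes, and a fit of these groups alone called 16 genes. With the replicate number as a block, 1 member was called in each comparison, 11 list genes and 1298 genes in KO_1E7 against parental and 12 list genes in KO_1E7 against CRISPR_1G2, and the block ended or added no call of a member. The numbers did not pair KO_1E7 with the other groups, since same-numbered libraries correlated at -0.00342, 0.0563 and 0.153 with parental and at -0.0497, 0.127 and 0.0727 with CRISPR_1G2. The cause of these shifts was not tested.

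Members whose log2 fold change altered its sign were not called under any setting. In KO_1E7 against CRISPR_1G2 these were Sgcb (0.231), Sntb2 (0.0958) and Dtna (0.0611) with dated libraries only, and Dag1 (-0.00163), Sgcb (0.205), Sntb2 (0.0444) and Dtna (0.0875) with parental 3 and CRISPR_1G2 3 left out. Leaving out 1 library in turn gave, in that comparison, -0.0656 to 0.104 for Utrn, -0.339 to 0.209 for Sgcb, -0.161 to 0.0673 for Sntb2 and -0.745 to 0.0913 for Dtna. In CRISPR_1G2 against parental it gave -0.0138 to 0.647 for Dag1, -0.0338 to 0.506 for Sgcb and -0.661 to 0.470 for Dtna, and in KO_1E7 against parental -0.0418 to 0.186 for Sntb2. With TPM in place of RPKM, the order of the members was the same in 2 of 3 groups. In CRISPR_1G2 Utrn (34.5 ± 7.83 TPM) and Sntb2 (34.4 ± 6.51 TPM), which lay within each other's spread, changed places. Levels between groups also depended on this choice. Utrn averaged 35.1 ± 3.73 TPM in KO_1E7 and 21.8 ± 11.1 TPM in parental, and Dmd 4.09 ± 0.608 and 0.705 ± 0.282 TPM. Depth limits Sgcd and Sntb1, which had 5 and 12 reads over all libraries.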
